A study of Homo sapiens with 2 samples.

Results

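Of the 4204 crosslink regions of FLAG-tagged Cas9 in the first of 2 irCLIP libraries, 1606 had no region of the second library within 100 bases on the same chromosome and strand, and these replicate 1 only sites are described here. They made up 38.2% of replicate 1 (exact 95% binomial interval 36.7 to 39.7) out of 10199 regions in both libraries. A further 23 regions without a counterpart were left out because each faced an opposite-strand region of replicate 1, with the minus-strand start 1 to 110 bases above the plus-strand start. The sites were chosen by the called positions of both libraries, presence in replicate 1 and absence from replicate 2, so their number and distances are a description and carry no test.

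Both libraries came from H1-iCas9 cells, human embryonic stem cells of the established H1 line in which doxycycline switches on Cas9. The cells of both received doxycycline at 1 µg/ml for 24 hours, ultraviolet light of 254 nm at 300 mJ/cm2, and recovery of Cas9 with an anti-FLAG antibody. No guide RNA is named in the labels, the libraries form 1 group without a control, and nothing says that they came from separate cultures. No RNA levels were measured in them, so the stem cell identity could not be checked on markers.

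Cas9 is a bacterial nuclease that holds a guide RNA and cuts DNA where the guide pairs next to a short motif. Its surface binds RNA, and crosslinking assays ask which RNAs of the host cell it touches. In irCLIP, ultraviolet light joins protein and RNA, cDNA synthesis often halts at the crosslink, and a called region marks that base on 1 strand. A site called in a single library lacks the recurrence by which such maps are usually read.

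The sequence is shown for the sites that fell in RefSeq promoter windows (GRCh38.p14, 250 bases before to 50 after an annotated gene start) and outside every gene span, because these are the members whose bases could be read here. The promoter table covered 1510 of the 1606 sites. Each sequence reads 5′ to 3′ on the strand of the site, and the capital letter marks the site.
FRY and FRY-AS1, chr13:32031699-32031759, plus strand: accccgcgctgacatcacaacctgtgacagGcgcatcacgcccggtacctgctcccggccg
LINC00303, chr1:204041347-204041407, minus strand: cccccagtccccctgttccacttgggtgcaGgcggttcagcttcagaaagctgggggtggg
FREM1, chr9:14911039-14911099, minus strand: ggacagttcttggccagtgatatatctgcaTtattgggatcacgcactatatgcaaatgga
OR10H2, chr19:15727774-15727806, minus strand: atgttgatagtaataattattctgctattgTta

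The site shown first lies between divergent genes, 45 bases before the start of FRY, a gene of a furry-family protein, and 90 bases before that of FRY-AS1, its long noncoding neighbour on the other strand. The second lies 112 bases before LINC00303, a long noncoding gene, on the strand of the gene. The site at FREM1, a gene of a basement membrane protein, lies 74 bases before its start, also on the gene's strand. The site at OR10H2, an olfactory receptor gene, lies near the far edge of its window on the opposite strand, so the window held only 33 bases around it. The scores of these sites were 5.48, 27.7, 1.87 and 5.77 in the order printed, and replicate 2 had no region near them. Their surroundings ranged from 21.2% G and C at OR10H2 to 68.9% at FRY.

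The absence from replicate 2 was rarely a near miss. Distances count bases between region edges, 0 for an overlap and 1 for neighbours. Of the 2356 regions of replicate 1 that had a counterpart and lay outside facing pairs, called recurrent sites here, 2257 overlapped it, 96 lay 1 to 10 bases from it and 3 lay 11 to 100 bases away. The replicate 1 only sites lay at a median of 326.7 kb from the nearest same-strand region of replicate 2 (quartiles 124.9 and 662 kb), and 9 of them had one closer than 1 kb.

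Just inside the limit stood a site in KHDC3L, a gene of an oocyte and embryo protein, at 73362740 on chromosome 6, with a score of 24.4 and a replicate 2 region of score 10.7 at 127 bases. The next distances were 541 bases in FAXC, 558 bases in PIP4K2A (a lipid kinase gene), 627 bases in LOC107985400 and 772 bases in no gene. Within the limit, the recurrent regions closest to it lay in ADARB2, a gene of the RNA-editing enzyme family, at 76 bases and in CYRIA at 18 bases. They were followed by regions in no gene at 11 and 10 bases and in TULP4 at 9 bases. Between 76 and 541 bases, therefore, the KHDC3L site was the single one found.

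Replicate 1 only sites had low scores. The score is the authors' own value per region, on a scale that no label or header states. It ranged from 0.147 to 201.6 with a median of 10.7, and 29 of the 1606 sites exceeded 50. Recurrent sites of replicate 1 had a median of 33.7, and 880 of 2356 exceeded 50. Regions of replicate 2 without a counterpart, 2809 outside facing pairs, had a median of 15.3 in their own library.

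Among the 3962 replicate 1 regions outside facing pairs, the share that lacked a counterpart fell along the score. It was 72.5% (95% interval 68.1 to 76.6) of regions scored up to 5 and 72.1% (67.8 to 76.1) of those scored between 5 and 10. It was 40.5% (36.4 to 44.6) between 20 and 30, 13.4% (9.77 to 17.8) between 40 and 60, and 0.818% (0.223 to 2.08) above 100, where 4 of 489 regions were found only in replicate 1. Neighbouring intervals overlapped at the lower end, so scores up to 10 did not separate.

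Many of these sites carried exactly the same score as others. Among the 1606 there were 386 distinct values, and 890 sites (55.4%) had a value held by at least 10 of them, against 598 of the 2356 recurrent sites (25.4%). Replicate 2 only sites, counted within their own set, had a higher share, 2011 of 2809 (71.6%). The commonest value, 10.7117, was held by 131 replicate 1 regions outside facing pairs, of which 74 were replicate 1 only. At 5.48249 the numbers were 35 of 40 regions and at 9.52652 they were 43 of 50. At 21.4376 they were 16 of 45. The highest value held by at least 40 of these regions was 708.396, and none of the 61 regions there lacked a counterpart.

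The highest scores among the sites fell in genes of varied kinds and between genes. The first, 201.6, lay at 63295126 on the plus strand of chromosome 1 in LINC00466, a long noncoding gene, 582.8 kb from the nearest same-strand region of replicate 2. A site of 144.2 at 80513018 on chromosome 5 lay in FAM151B on the strand of the gene. A site of 141.9 at 35676435 on chromosome 18 lay in GALNT1, which encodes an enzyme that starts mucin-type O-glycosylation, also on the gene's strand. LOC105372065, a long noncoding gene on the other strand, spans this site too. The site lay 0.695 kb after the nearest annotated start, whose gene was not identified. The fourth, 116.2, lay in no gene at 26279346 on chromosome 9.

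The next 11 scores ran from 96.4 down to 63.4. The site of 82.9 at 21950811 on chromosome 14 lay in TRA, the T cell receptor alpha locus. A site of 74.7 at 182396057 on chromosome 4 lay antisense to TENM3, a teneurin gene of synaptic adhesion. Others were antisense to CYP39A1, an oxysterol hydroxylase gene (71.0 at 46550687 on chromosome 6), to ATXN7L1 (69.5 at 105765293 on chromosome 7) and to ARHGEF18 (65.1 at 7438429 on chromosome 19). The site in ARL15, a small GTPase gene, lay on the gene's strand (63.6 at 54299326 on chromosome 5). The other 5 of these 11 lay in no gene. Of the 15 highest sites, 8 lay in protein-coding or long noncoding genes, 3 of them sense, 4 antisense and 1 in a gene whose strand the promoter table did not settle. Strand was read against the protein-coding gene where a site lay in both classes.

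By gene class the sites resembled the recurrent sites of their own library. Protein-coding gene spans held 47.7% of them (45.3 to 50.2), long noncoding genes 12.02% (10.5 to 13.7), pseudogenes 0.997%, and no gene 38.9% (36.5 to 41.4), over the 1605 sites on placed chromosomes. Recurrent sites had 47.4% in protein-coding spans, a difference of 0.277 percentage points (Newcombe 95% interval -2.89 to 3.44). Protein-coding spans cover 40.9% of the chromosomes up to the last annotated gene, with unsequenced stretches counted in that length. All intervals here treat regions as independent and cover counting error only. Exons and introns could not be told apart with the reference used.

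None of the 1605 sites on placed chromosomes overlapped a gene of a tRNA, rRNA, snRNA, snoRNA, miRNA or other small structured RNA. The site on an unplaced sequence was not checked against genes. None of the 1606 lay on chromosome M. In replicate 2, 35 of the 2801 placed sites without a counterpart overlapped such a gene, and 2 of the 2352 placed recurrent sites of replicate 1 did. A count of 0 among 1605 sites, taken as fewer than 3, allows a share of up to 0.187%. Antigen receptor loci held 5 sites outside protein-coding and noncoding genes, 3 in TRA, 1 in IGH, the immunoglobulin heavy chain locus, and 1 in IGL, the lambda light chain locus. The 16 pseudogene sites included FMO10P (39.98 at 166691506 on chromosome 1), B3GALNT2P1 (30.7 at 129795973 on chromosome 6) and SIAH1P1 (30.7 at 35626822 on chromosome X), named after their values were seen.

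Within protein-coding genes the sites did not follow the strand of the gene. Strand was known from the promoter table for 15842 of 20050 protein-coding genes, and a site counted when all protein-coding genes at it shared a strand. Of 622 such sites, 306 lay on the gene's strand and 316 on the other, a sense share of 49.2% (45.2 to 53.2). Recurrent sites had 396 sense and 526 antisense, or 43.0% (39.7 to 46.2). The difference was 6.25 percentage points (Newcombe 95% interval 1.18 to 11.3), and with replicate 2 only sites, at 46.6% sense, it was 2.61 points (-2.27 to 7.48). In long noncoding genes 55 sites were sense and 55 antisense, with an interval of 40.3 to 59.7% that also took in the recurrent share of 44.9%.

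Replicate 1 only sites were less frequent at gene starts than replicate 2 only sites, with a share near that of the length the promoter windows cover. Promoter windows held 6 of 1510 sites, or 0.397% (0.146 to 0.863), where the windows cover 0.324% of the length of their chromosomes. Recurrent sites had 14 of 2231, or 0.628% (0.343 to 1.05), a difference of -0.230 percentage points whose interval, -0.705 to 0.301, includes 0. Replicate 2 only sites had 77 of 2667, or 2.89% (2.29 to 3.595), a difference of -2.49 points for the replicate 1 only sites (-3.23 to -1.75). For sites scored above 10 and up to 40 the replicate 1 only share was 0.120% (0.00303 to 0.665). With both libraries limited to scores at or above their medians it was 0.334% (0.00847 to 1.85). The difference from replicate 2 only sites was then -4.00 points (-5.66 to -2.05). Very few replicate 1 only sites lie behind either share. Within 1 kb of a start on either side lay 2.85% of replicate 1 only, 3.99% of recurrent and 10.8% of replicate 2 only sites. This contrast is between the unmatched sites of 2 libraries and not between conditions.

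Along protein-coding genes the sites were spread evenly. Cut into 5 equal parts from the 5′ end, the genes held 127, 107, 135, 141 and 109 of 619 replicate 1 only sites. The first part had 20.5% (17.4 to 23.9), against 21.6% of recurrent and 29.5% of replicate 2 only sites. The difference from replicate 2 only sites was -8.94 points (-13.0 to -4.69), and from recurrent sites -1.05 points (-5.14 to 3.16).

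The promoter windows of the 6 sites, 1 window per site, had a median of 58.0% G and C, from 37.0 to 73.7%. This was close to the median of 58.7% over all windows. The windows of the 14 recurrent sites had a median of 68.5%, and those of the 77 replicate 2 only sites had a median of 73.3%. Besides the sequences shown above, sites lay 157 bases before a start of FHL2, a LIM domain gene, and 179 bases before one of HIRIP3, a gene of a histone-binding protein. Both of these are inside the gene span and antisense, with scores of 5.48 and 0.147. The base at the site was G in 3, T in 2 and C in 1 of the 6. For 5 of them the table held all 20 bases on either side. GGNGG occurred there on the strand of the site in 3 of 5 and its reverse complement CCNCC in 1, while runs of 6 A or 6 T and the string TGTTTG did not occur. GGNGG stood in 27.5% of windows of the same length at the middle of all promoter windows, read on both strands, and with 5 sites no share can be set against it. The FRY, LINC00303 and FREM1 sites printed above are among these 5, and of these printed sites only the LINC00303 site has GGNGG there.

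Genes rarely held several replicate 1 only sites. In all, 990 genes held at least 1, of which 915 held 1, 66 held 2, 8 held 3 and 1 held 4. Replicate 2 had a region elsewhere in 300 of the 990 genes (30.3%) and none in 690. The share of all genes with any replicate 2 region is not given here, so these counts have no background to be read against. For the 750 sites that lay in exactly 1 protein-coding gene, the median length of that gene was 181.4 kb, counted once per site, near the 172.8 kb of 1095 such recurrent sites. All protein-coding genes, each counted once, have a median of 24.1 kb. Of all protein-coding genes, 3.55% held a replicate 1 only site, and of long noncoding genes 1.39%. For recurrent sites these shares were 5.0% and 2.05%, and for replicate 2 only sites 6.37% and 2.17%.

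TENM3, a gene of 1355 kb, held the most, with 4 sites. Their scores were 37.6 and 7.99 at 181540798 and 181546377, and 74.7 and 7.99 at 182396057 and 182416621. The second was sense and the other 3 antisense, and the gene also had 3 recurrent sites and 8 replicate 2 regions. TRA, of 930.2 kb, had sites of 17.0 and 82.9 on the minus strand (21923028 and 21950811) and 38.2 on the plus strand (22369289), no recurrent site and 3 regions of replicate 2 at other places.

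KCNIP1, a gene of a potassium channel interacting protein, had 3 sites of 24.6, 18.8 and 3.94 and no region at all in replicate 2. VPS13A, a lipid transfer protein gene, had sites of 17.8 and 44.2 on its strand and 9.53 on the other. GPHN, which encodes the inhibitory synapse scaffold gephyrin, had 3 plus-strand sites of 10.7, 31.1 and 12.3 over its 1227 kb. OPCML, a neural adhesion gene, had 33.7, 12.03 and 5.48, and ROBO2, an axon guidance receptor gene, had 13.9, 8.92 and 17.0. TBC1D22A had 22.99, 11.4 and 10.7, and CSMD1, a gene of a complement-regulatory membrane protein, had 10.7 at each of 3 places. All of these protein-coding genes other than GPHN had replicate 1 only sites on both strands.

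Of the 66 genes with 2 sites, those with the highest summed scores were ASCC3, a helicase gene (21.4 and 57.6), ARL15 (8.92 and 63.6), SLIT3, a guidance ligand gene (49.7 and 21.05), PRKCA, a protein kinase C gene (31.0 and 36.7), SIN3B, a corepressor gene (54.6 and 8.24), and SLC9A9, a sodium-proton exchanger gene (39.7 and 23.1). SIN3B was the shortest of the 6, at 51.0 kb, with both sites antisense and no region in replicate 2. SLC9A9 had both sites on its strand. The sites were also sparse along the genome, as 12 of the 1606 (0.747%) had another within 10 kb on the same strand, against 1.44% of recurrent and 2.56% of replicate 2 only sites. These shares move with the size of each set.

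Gene lists were read against the 3.55% of all protein-coding genes that held such a site, with no test. Of 68 genes listed under neuronal adhesion and guidance, 28 (41.2%) held one, where 40 held a recurrent and 37 a replicate 2 only site. The 28 include MACROD2, a long gene that the name of the list does not describe. The median length of this list is 832.2 kb. Its highest scores were in TENM3 (74.7), SEMA6D, a semaphorin gene (59.1 at 47290001 on chromosome 15, antisense), SLIT3 (49.7) and CNTN5, a contactin gene (48.6 at 99516030 on chromosome 11, antisense). LRRTM4, a postsynaptic adhesion gene, and SEMA3E, a semaphorin gene, had a replicate 1 only site of 17.0 and 8.92 and no region of replicate 2, and both were named after their values were seen.

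Of 81 neurodevelopmental disorder genes, 11 (13.6%) held a replicate 1 only site, 12 a recurrent and 14 a replicate 2 only site, with a median length of 160.8 kb. FOXP1, a forkhead transcription factor gene, had the highest score (45.6 at 71008929 on chromosome 3, sense), and others were in ANK3, an ankyrin gene (25.3, sense), and TCF4, a basic helix-loop-helix factor gene (18.9, antisense).

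Of 34 pluripotency genes matched, 2 (5.88%) held a site, ESRRB, an orphan nuclear receptor gene (6.43 at 76435092 on chromosome 14, antisense), and LIN28B, a regulator of let-7 processing (5.48 at 105004963 on chromosome 6, sense), and neither had a region in replicate 2. Of 35 neural lineage genes, MAP2, a neuronal microtubule protein gene, held 1, or 2.86% (18.6 at 209695796 on chromosome 2, sense), and of 24 mesoderm and endoderm genes 0 did. With lists of this size, 1 gene more or less moves a share across the 3.55% of all protein-coding genes.

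None of 80 ribosomal protein genes, 36 translation factor genes or 32 small structured RNA genes held a replicate 1 only site, and their median lengths are 4.91, 18.7 and 0.121 kb. Of 23 long noncoding RNAs 1 was hit (4.35%, where 1.39% of all long noncoding genes were), KCNQ1OT1, an imprinted transcript within KCNQ1 (10.7 at 2620235 on chromosome 11). Of 40 DNA damage genes 1 was hit (2.5%), TP53BP1, a double-strand break repair gene (36.7 at 43474541 on chromosome 15, sense), and of 39 genes that restrain retroelements 0 were hit.

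A few sites faced a region of replicate 2 on the other strand. For 5 of the 1606, an opposite-strand region of replicate 2 lay within 100 bases, and in all 5 the minus-strand start lay above the plus-strand start, by 22 to 32 bases. At 17154390 on chromosome Y, in no gene, the replicate 1 site scored 50.7 and the facing replicate 2 region 1417, the highest score among replicate 2 only sites. At SCG5, a secretory granule gene on chromosome 15, they scored 18.6 and 255.9. The others lay in ANAPC7, an anaphase-promoting complex gene (17.7 and 1.41), in MIR4432HG, the host gene of a miRNA (24.4 and 7.40), and in no gene on chromosome X (27.0 and 20.8). Between 100 and 1000 bases there were 5 more, of which 3 had the minus-strand start above and 2 below.

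The sites were spread over all placed chromosomes other than M and divided evenly by strand, 801 plus and 805 minus, and 1592 were a single base. The share of replicate 1 regions outside facing pairs that were found only there was 40.5% in all, and ranged from 33.0% on chromosome 17 (38 of 115, 24.6 to 42.4) to 47.7% on chromosome 22 (21 of 44, 32.5 to 63.3). Each chromosome's interval took in the overall share. Chromosomes 1, 2 and 3 held the most, with 122, 119 and 110. One site lay on an unplaced sequence of chromosome 22.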

How the data were processed

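The irCLIP libraries, 2 of 1 group, were analysed. The deposited data are called positions per library with a score, a value the authors computed per region, equal to the sum of its site scores within 0.002 as checked on the values. The submitters' processing notes name STAR 2.5.2, Bowtie2 2.3.5, UMI-tools, deepTools, SAMtools and the build hg38 without roles, and for the region caller, its threshold and multiply aligned reads nothing is given in the sources used here. Read depth is unknown. Positions are 1-based on hg38. Genes were RefSeq spans of GRCh38.p14, which shares its primary assembly with hg38, taken at the region's midpoint, protein-coding first, and strand and starts from a RefSeq promoter table that was not used for 95 sites on chromosome 8. The comparison sets leave out facing pairs of their own library. Shares carry exact Clopper-Pearson intervals of 95% and differences Newcombe intervals (SciPy 1.17.1), with no test over regions. The members, lists and most descriptions were chosen with earlier results of these data known. Named are the 15 highest sites, the 15 genes with the most sites, up to 4 genes per list by score, and the 5 sites nearest the distance limit on each side. A listed gene that this rule takes is not reported here. Grouping and annotation were tested on simulated data. Planned exon shares and sequence composition genome-wide were not run, as no genome was used here.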

Additional observations from a re-analysis of the deposited data

How the results depend on the processing

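The number of replicate 1 only sites stayed between 1597 and 1705 when the counterpart was defined by overlap, within 10 or 1000 bases or on either strand, or when facing pairs were kept, and was 2373 when only replicate 2 regions at or above their median score counted as counterparts. With replicate 1 regions at or above their median score it was 317. The median score was 12.96 when only the higher-scoring replicate 2 regions counted, and 10.7 under the other settings run. The share in protein-coding genes was 21.2% when the gene had to lie on the site's strand, and between 46.8 and 49.8% otherwise. Settings for the sense share and the promoter windows were chosen after seeing the data. The sense difference from recurrent sites ranged from 5.73 to 8.44 points, and its interval took in 0 for regions at or above the median score (-0.937 to 17.6). The promoter window share was 0.120% (0.00303 to 0.665) for scores above 10 and up to 40, where very few sites lie behind it. The difference in this share from replicate 2 only sites was -4.00 points (-5.66 to -2.05) when both libraries were limited to scores at or above their medians. Under the other settings the difference lay between -2.50 and -1.92. Leaving out a replicate gives no value, since membership needs both. No paired analysis was possible because the libraries form a single group. Exon shares were not run. Read depth, which would bear on a missing counterpart, is unknown.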
